A study of Mus musculus with 24 samples.

Results

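The mammalian carboxylesterases are serine hydrolases that cleave esters, thioesters and amides, and most of them are held in the lumen of the endoplasmic reticulum by a short retrieval signal at their end. In liver they are known both for activating and clearing drugs and for hydrolysing stored lipids, and the mouse carries several copies of each kind in tandem on 1 chromosome. The 10 carboxylesterase genes described here are Ces1b, Ces1c, Ces1d, Ces1e, Ces1f, Ces1g, Ces2a, Ces2e, Ces3a and Ces3b. They were taken by gene name from a count table of 55421 genes, which held 20 carboxylesterase genes in all. All 10 were among the 13583 genes with enough counts to be tested.

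RNA was measured in hepatocytes of 24 male mice, 6 in each of 4 groups named by age and diet, with ND for normal diet and HFD for high-fat diet: young ND, old ND, young HFD and old HFD. Per the labels, young mice were C57BL/6N at 6 months and old mice C57BL/6J at 24 months, which means that age cannot be told apart from substrain, and the study's own text gives other ages. Each diet was fed for 9 weeks after a rest of at least 2 weeks. The HFD was 58Y1, with 60% of its energy from fat, while for the ND the labels name a Teklad global chow and the study's methods name another product, a purified diet low in fat. Hepatocytes came from collagenase-perfused livers, 1 library per mouse, in 2 batches as the labels name them, with 3 mice of each group in each batch except old ND, which had 2 in batch 1 and 4 in batch 2. Total counts ran from 9200332 to 22185069 per mouse, and each old HFD library held fewer counts than any library of the other groups. These mice are separate animals, and none of the 60 within-group pairs of libraries agreed within counting noise (chi-square per degree of freedom from 14.5 to 341).

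The hepatocyte label matched its markers, with Alb, Apoa1, Ttr and 5 other hepatocyte genes together at 77800 to 158000 CPM (counts scaled to library size, with the library size adjusted by the trimmed mean of M-values) in 23 mice. Old ND replicate 4 stood apart at 43510 CPM, against 114900 to 158000 in the other 5 old ND mice. In that mouse the summed Kupffer cell and macrophage markers were 1421 CPM against 54.3 to 936 in the rest of its group, and the endothelial, stellate, lymphocyte, neutrophil and cholangiocyte lists were also the highest of the group there. All 10 carboxylesterases had their lowest old ND level in this mouse, where 28.4% of all tested genes had theirs, and its log2 CPM lay below the mean of the other 5 mice by a median of 1.55 over the carboxylesterases. In RNA from many cells, fewer hepatocytes and less of a transcript per hepatocyte cannot be told apart. Estimates for the 10 carboxylesterases that involve old ND are therefore given with and without this mouse where they are described. The estimates for genes that are not carboxylesterases are given only with it. Old HFD replicate 2 also stood apart, with 14905 genes detected against up to 19615 in its group.

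All 20 genes lie on mouse chromosome 8 (GRCm38, GENCODE M21). The Ces1 genes occupy chr8:93020214-93379725 on the minus strand, with 6 of the genes described here among 8. The Ces2 and Ces3 genes occupy chr8:104734003-105093929 on the plus strand, with 4 among 10. Copies in tandem can share reads. Of the 50-base words in the exons of Ces3a, 25.6% also occur in another carboxylesterase, in each case Ces3b, and 26.2% of those of Ces3b occur in Ces3a. For Ces1b and Ces1c the shares with other carboxylesterases are 10.8% and 10.2%, for Ces2a 16.3% of the words occur in the gene model Gm7208, and for Ces1d, Ces1e, Ces1f, Ces1g and Ces2e at most 3.3% occur in another carboxylesterase. Levels of Ces3a, Ces3b, Ces2a, Ces1b and Ces1c are accordingly less certain than those of the other 5 genes. Ces1d and Ces3a each overlap a further annotated gene (Gm45909 and Gm45724), and whether strand was used in counting is not given in the sources used here.

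**Figure D1:**
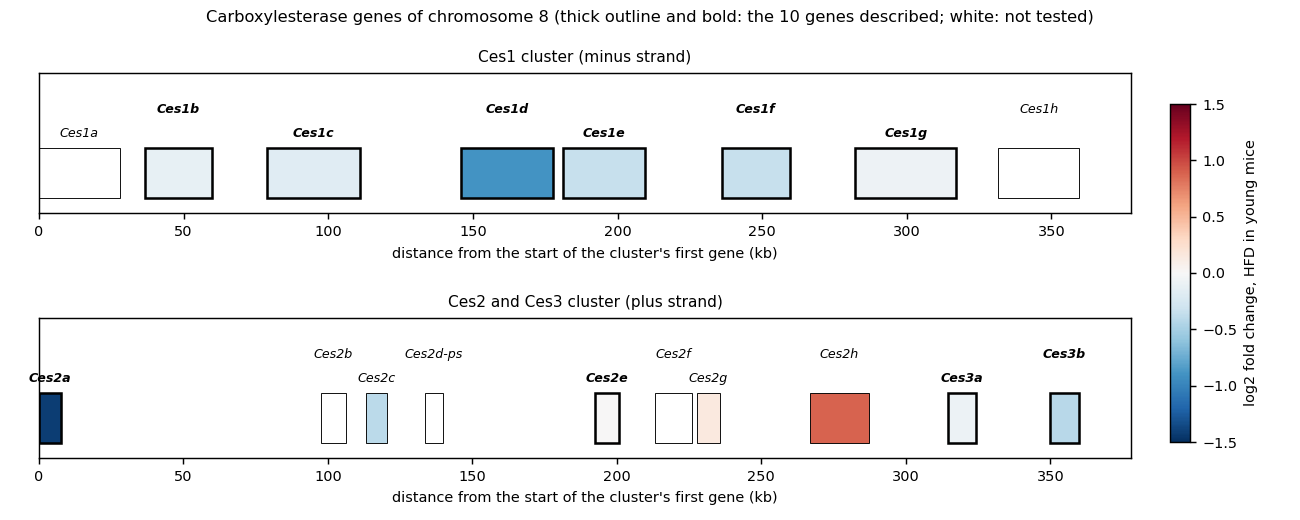
Map of both carboxylesterase clusters. Boxes span each gene, the x axis is the distance in kb from the start of the cluster's first gene, and colour is the log2 fold change of HFD against ND in young mice. The darkest boxes are Ces2a (log2 fold change of -1.42) and Ces1d (-0.89), while others of the clusters are near 0, such as Ces2e (0.01). Ces2h is coloured at 0.89 but was under 1.2 CPM in every young mouse and did not pass the test.

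Per length, Ces3a was the highest of the family on 1 scale and Ces1c on another, and Ces1b was the lowest of the 10 on both. In the FPKM values (fragments per length of transcript and depth) the means over 24 mice were 194 ± 46.2 (SD) for Ces3a and 81.5 ± 9.28 for Ces1c. Ces2a (37.3 ± 18.0), Ces3b (36.6 ± 12.3) and Ces2e (35.8 ± 9.06) followed and lay within each other's spread, as did Ces1d (24.9 ± 9.09) with Ces1f (24.4 ± 4.60), and Ces1e (9.12 ± 2.59) with Ces1g (7.76 ± 1.93). Ces1b was at 3.54 ± 0.81 FPKM. Counts gave another order. As CPM per kb of exon, Ces1c, the secreted esterase of mouse plasma, came first (1100 ± 167), before Ces3a (673 ± 163) and Ces1d (323 ± 116), while Ces2a was at place 8 (109 ± 50.5). The ratio of both scales was 6.9 to 14.3 for the 6 Ces1 genes and 2.86 to 3.7 for the 4 Ces2 and Ces3 genes. For some pairs, such as Ces1d and Ces2a, the order of a Ces1 gene against a Ces2 or Ces3 gene therefore depends on the scale. Other pairs kept their order, such as Ces3a above Ces1d. Why the scales differ was not tested. By FPKM alone, Ces2a took place 3 among the 10 genes in both ND groups and place 6 in both HFD groups. The 10 genes together held 0.748 to 0.891% of all counts in young ND mice, 0.663 to 0.788% in young HFD, 0.611 to 0.701% in old HFD and 0.660 to 0.777% in old ND apart from replicate 4, at 0.282%.

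**Figure D2:**
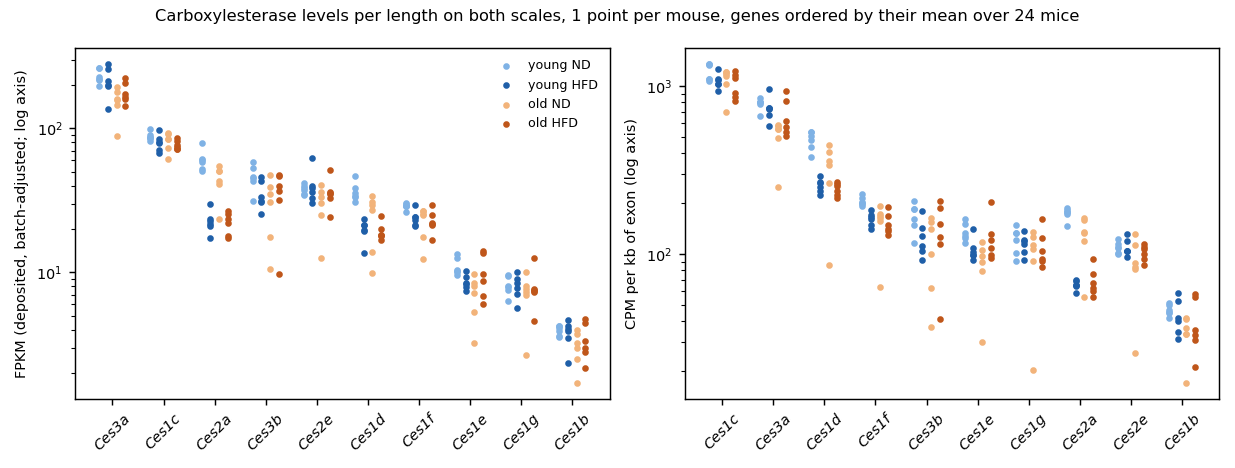
Levels per length of the 10 carboxylesterases, 1 point per mouse, as FPKM (left) and CPM per kb of exon (right), both on log axes and ordered by the mean over 24 mice. Ces3a leads on the left at a mean of 194 FPKM and Ces1c on the right at 1100 CPM per kb, and Ces2a is the gene whose ND and HFD mice separate most clearly.

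Ces2a and Ces1d fell on the high-fat diet in young mice, and Ces2a also fell in old mice. Ces2a encodes an enzyme of the carboxylesterase 2 kind, known to hydrolyse diacylglycerols and monoacylglycerols. Its level in young ND mice was 347.5 CPM at the lowest, 421 at the median and 446 at the highest. In young HFD mice the same figures were 138, 154 and 166 CPM, so every HFD mouse lay below every ND mouse. The log2 fold change was -1.42 (SE 0.18, adjusted p = 9.23e-05, edgeR quasi-likelihood test with Benjamini-Hochberg adjustment, n = 6 mice a group), which is 37.4% of the ND level. The mean differences in log2 CPM were -1.49 in batch 1 and -1.34 in the other batch, where a model of batch 2 alone did not pass the test (adjusted p = 0.244, edgeR).

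In old mice Ces2a was 131, 317.5 and 385 CPM on ND (lowest, median, highest) and 132, 153 and 219 CPM on HFD. The low ND value was replicate 4, and the next lowest old ND mouse was at 281.5 CPM, above every HFD mouse. The log2 fold change was -0.88 (SE 0.18, adjusted p = 0.00971, edgeR), with a mean difference of -1.18 in batch 1 and -0.55 in batch 2, the batch that holds replicate 4. Without replicate 4 it was -1.01 (adjusted p = 4.11e-05, edgeR). In a model of the 12 old mice alone it was -0.84 and did not pass the test (adjusted p = 0.264, edgeR), nor did it in batch 2 alone (adjusted p = 0.449). The effects at both ages differed by 0.54 (SE 0.25, 95% interval 0.06 to 1.02, adjusted p = 0.531, edgeR), and by 0.38 without replicate 4.

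Ces2e, the other carboxylesterase 2 gene of the set, lies in the same cluster and did not follow Ces2a. Its lowest, median and highest levels were 271, 294 and 332 CPM in young ND mice and 258, 282 and 357 CPM in young HFD mice, and the range of the ND mice lay within that of the HFD mice. The log2 fold change was 0.01 (95% interval -0.41 to 0.43, adjusted p = 0.991, edgeR) in young mice and 0.22 (-0.20 to 0.65, adjusted p = 0.585) in old mice, where it was 0.07 without replicate 4. Within a library the ratio of Ces2a to Ces2e counts is free of library scaling. On ND it was 1.41 ± 0.21 (SD, n = 6) in young and 1.38 ± 0.34 in old mice, and on HFD 0.525 ± 0.0627 in young and 0.599 ± 0.124 in old mice. The lowest ratio in any ND mouse was 0.928 and the highest in any HFD mouse 0.742, and old ND replicate 4, low in both genes, had a ratio of 1.88. This ratio was formed after the values of both genes were known and is given with no test.

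**Figure D3:**
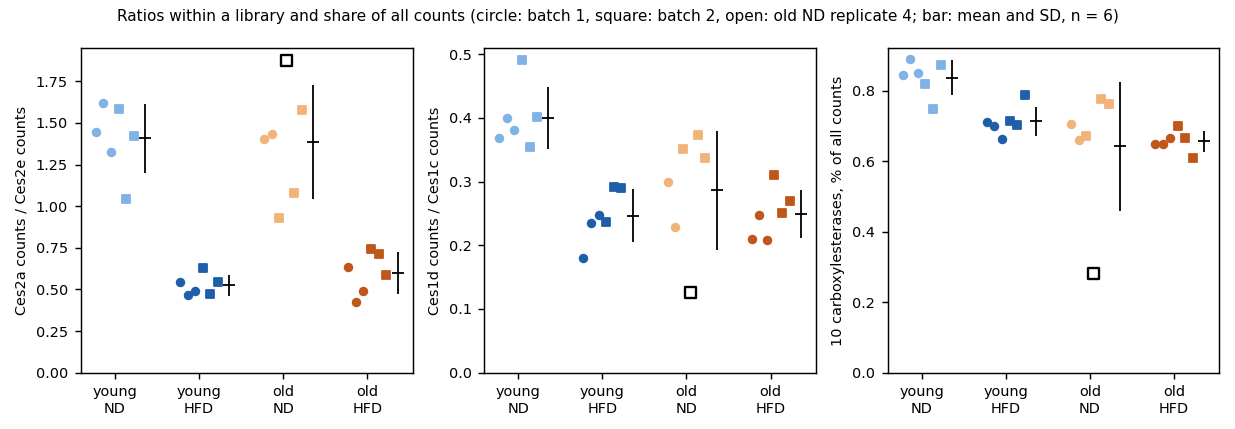
Ratio of Ces2a to Ces2e counts (left), of Ces1d to Ces1c counts (middle) and the share of all counts held by the 10 genes (right) in each mouse, by group. Every HFD mouse lies at or below 0.742 in the left plot and every ND mouse at or above 0.928, whereas old ND replicate 4 (open square) is low only in the middle and right plots.

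The 250 bases before the annotated start of Ces2a and of Ces2e are shown because the genes are of the same kind and cluster and their estimates on HFD differed. They are RefSeq sequences of GRCm38.p6 on the plus strand, 5′ to 3′, for Ces2a at chr8:104733753-104734002 and for Ces2e at chr8:104926010-104926259. Capitals mark CCAAT and TTGCNNAA on either strand, which do not overlap each other here.
Ces2a: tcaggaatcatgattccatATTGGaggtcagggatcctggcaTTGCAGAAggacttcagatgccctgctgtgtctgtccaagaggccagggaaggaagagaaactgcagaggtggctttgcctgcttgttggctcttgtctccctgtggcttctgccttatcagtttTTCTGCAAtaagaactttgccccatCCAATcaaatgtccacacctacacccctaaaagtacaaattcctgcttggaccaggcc
Ces2e: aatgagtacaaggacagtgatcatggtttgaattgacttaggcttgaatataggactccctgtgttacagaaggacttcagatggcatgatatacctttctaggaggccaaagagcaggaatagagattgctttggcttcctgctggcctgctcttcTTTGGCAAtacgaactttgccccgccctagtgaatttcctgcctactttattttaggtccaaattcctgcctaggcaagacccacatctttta
The sequences were identical at 69.9% of 216 aligned bases. Ces2a held CCAAT starting 231 and 58 bases before the start and TTGCNNAA at 208 and 83, and Ces2e held TTGCNNAA at 93 and no CCAAT. Of 32851 upstream sequences of this length, 33.8% held CCAAT and 9.56% TTGCNNAA. On both strands TATAAA (12.4% of all), CAAAGTCCA (0.384%), TGACNNNGC (10.2%), TTCNNNGAA (7.02%) and TGTTTAC (3.17%) were also searched and were in neither sequence. Upstream sequences were matched for 7 of the 10 genes.

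Ces1d, known as triacylglycerol hydrolase and for supplying stored lipid to the assembly of very-low-density lipoprotein (VLDL), was the second gene lower on HFD in young mice. Its level was 891 CPM at the lowest, 1167 at the median and 1258 at the highest in young ND mice, and 529, 612 and 694.5 CPM in young HFD mice, again with no overlap. The log2 fold change was -0.89 (SE 0.23, adjusted p = 0.0327, edgeR), which is 53.9% of the ND level, with -1.03 in batch 1 and -0.74 in the other batch. The call was close to the threshold: it was lost in 8 of the 24 models that each left out 1 mouse, namely young ND replicates 1 to 4 and young HFD replicates 1, 3, 5 and 6 (adjusted p from 0.0585 to 0.0951, edgeR), while without old ND replicate 4 the adjusted p was 1.98e-04 at a log2 fold change of -0.86. It was also lost under the replicate block (adjusted p = 0.0502, edgeR), in batch 2 alone (0.684) and with limma on log2(FPKM + 1) with no filter (0.0882). In old mice Ces1d was 205, 826 and 1056 CPM on ND and 514, 583 and 639 CPM on HFD, with replicate 4 as the lowest ND value. The difference of -0.38 (95% interval -0.82 to 0.07, adjusted p = 0.338, edgeR) did not pass the test, and without replicate 4 it was -0.54 and passed (adjusted p = 0.0261). The diet effects at both ages differed by 0.51 (95% interval -0.11 to 1.14, adjusted p = 0.62, edgeR), and by 0.32 without replicate 4.

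The diet counts were 2 of 10 carboxylesterases lower and 0 higher in young mice, where 3.5% of all tested genes passed in either direction (1.59% lower, 1.91% higher). In old mice they were 1 lower and 0 higher, where 3.01% passed (1.64% lower, 1.37% higher). Groups did not overlap for 3 genes in young mice (Ces1d, Ces1f and Ces2a; 4.82% of all genes) and for 0 in old mice (1.26% of all genes). Without old ND replicate 4, Ces2a and Ces1d were called in old mice (2.94% of all genes), and Ces2a did not overlap (1.94% of all genes). The median log2 fold change of the 10 genes was -0.26 in young mice, with 9 of 10 estimates below 0, and 0.10 in old mice, with 4 of 10 below 0. Without old ND replicate 4 the old-mouse median turned to -0.03, with 5 of 10 below 0. Over all tested genes the medians were 0.01 and -0.01.

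**Figure D4:**
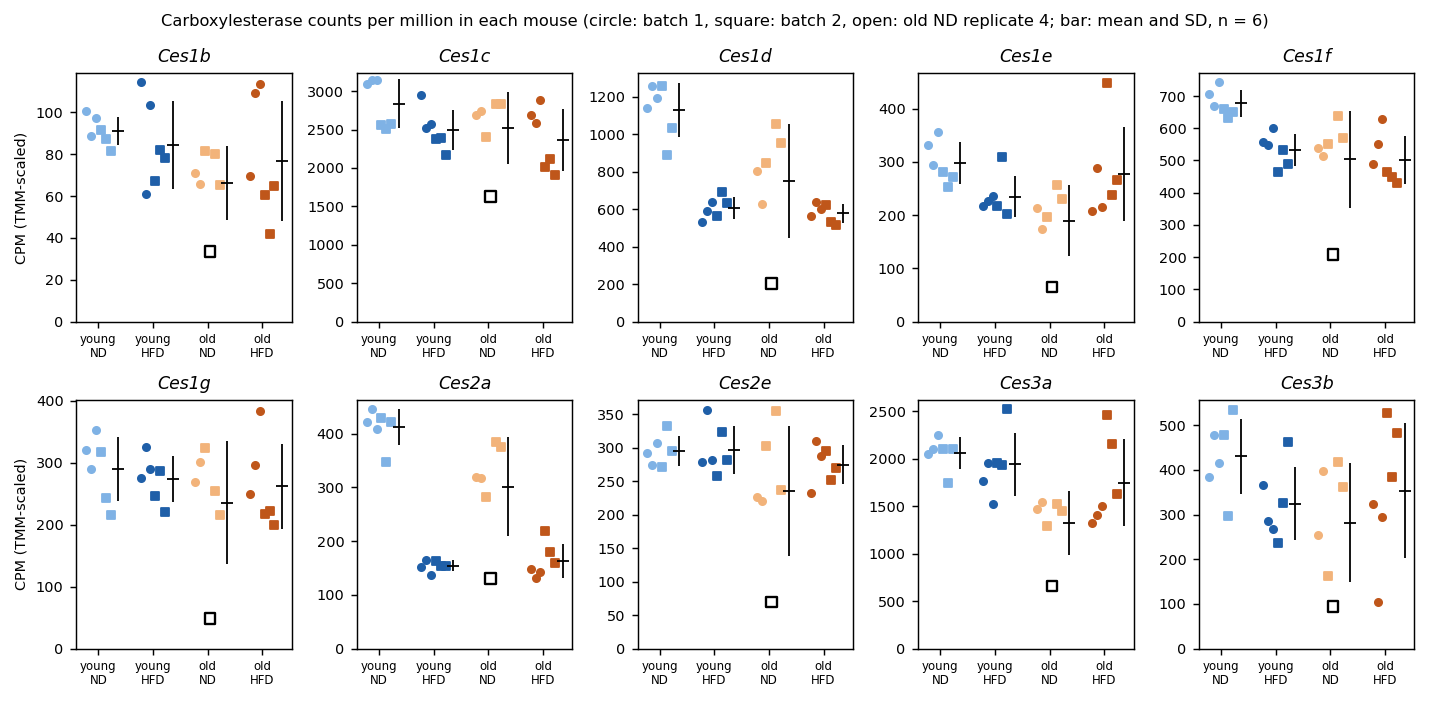
CPM of each carboxylesterase in each mouse, by group, with the mean and SD (n = 6). The y axes start at 0, circles are batch 1 and squares batch 2, and the open square is old ND replicate 4, the lowest old ND mouse in all 10 panels. The young HFD points of Ces2a (138 to 166 CPM) and Ces1d (529 to 694.5 CPM) lie below all young ND points.

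None of the 5 other Ces1 genes passed the test for diet at either age. Ces1f, which like Ces1d is known as a lipid hydrolase, was 632, 665 and 744 CPM (lowest, median, highest) in young ND and 463, 541 and 601 CPM in young HFD. The groups did not overlap, but the log2 fold change of -0.35 (SE 0.16) missed the threshold (adjusted p = 0.219, edgeR). It passed in a model of the 12 young mice alone (adjusted p = 0.0051) and without old ND replicate 4 and old HFD replicate 2 (adjusted p = 0.0297). In old mice Ces1f was 503 ± 151 CPM on ND and 502 ± 74.7 on HFD (SD, n = 6), a log2 fold change of -0.04 (95% interval -0.37 to 0.29), or -0.16 without replicate 4. Ces1c, the plasma esterase, was 2838 ± 319 CPM (SD, n = 6) in young mice on ND and 2496 ± 261 on HFD, and 2521 ± 464 in old mice on ND and 2366 ± 405 on HFD. Its diet estimates were -0.18 (95% interval -0.42 to 0.05) in young mice and -0.15 (-0.39 to 0.09) in old mice, the latter -0.21 without replicate 4. In young ND mice Ces1c separated by batch, at 3096 to 3147 CPM in batch 1 and 2512 to 2572 CPM in batch 2. It also did in young HFD mice (2524 to 2946 against 2172 to 2386 CPM) and in old HFD mice (2590 to 2880 against 1908 to 2118 CPM), but not in old ND mice. Ces1g, linked to the size of lipid droplets and to hepatic lipid handling, was 290 ± 51.8, 274 ± 36.9, 235 ± 98.8 and 262 ± 68.9 CPM in young mice on ND and HFD and then in old mice on ND and HFD, with diet estimates of -0.08 and 0.08, the latter -0.09 without replicate 4. Ces1b, the lowest of the 10, was 91.2 ± 6.85, 84.5 ± 20.9, 66.3 ± 17.5 and 76.7 ± 28.7 CPM, with diet estimates of -0.12 and 0.12, the latter 0.02 without replicate 4.

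Ces1e, known as egasyn for anchoring beta-glucuronidase in the endoplasmic reticulum, had diet estimates of opposite sign at both ages. It was 298 ± 38.7 CPM in young ND against 235 ± 38.0 in young HFD, a log2 fold change of -0.35 (SE 0.23, adjusted p = 0.408, edgeR). It was 189 ± 66.9 CPM in old ND against 277 ± 88.6 in old HFD, which gave a log2 change of 0.56 (SE 0.23, adjusted p = 0.152), or 0.41 without old ND replicate 4. The difference between both effects was 0.90 (SE 0.32, 95% interval 0.28 to 1.53, unadjusted p = 0.00937, adjusted p = 0.531 over all genes, edgeR), and 0.73 without old ND replicate 4. With no filter on low counts the adjusted p was 0.0156. Among old HFD mice replicate 4 was the highest at 447 CPM, and the other 5 were at 208 to 289 CPM.

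A pair of upstream sequences is shown for Ces1b and Ces1c, since they differ in level, 40.6 against 1100 CPM per kb, but little where these bases align. They are RefSeq sequences of GRCm38.p6 on the minus strand, written 5′ to 3′ in the direction of the gene, for the start of Ces1b that matches the GENCODE gene's end at chr8:93080018-93080267 and for Ces1c at chr8:93131284-93131533. Capitals again mark CCAAT and TTGCNNAA on either strand.
Ces1b: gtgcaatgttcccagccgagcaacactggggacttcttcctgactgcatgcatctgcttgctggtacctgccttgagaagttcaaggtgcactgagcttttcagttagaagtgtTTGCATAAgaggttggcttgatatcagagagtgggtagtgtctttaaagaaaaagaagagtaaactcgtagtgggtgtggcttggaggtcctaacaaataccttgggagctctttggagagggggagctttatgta
Ces1c: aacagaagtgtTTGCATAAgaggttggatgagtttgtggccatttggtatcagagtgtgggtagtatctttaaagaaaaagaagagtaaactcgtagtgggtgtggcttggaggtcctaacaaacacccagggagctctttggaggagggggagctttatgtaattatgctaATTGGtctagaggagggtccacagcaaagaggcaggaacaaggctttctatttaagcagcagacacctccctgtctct
They were identical at 93.2% of 147 aligned bases. Ces1b held TTGCNNAA 136 bases before the start and no CCAAT, and Ces1c held TTGCNNAA at 239 and CCAAT at 78, so the matching stretch lies at another distance from the start in each gene. These matches hold for the start chosen. RefSeq also lists a start of Ces1b inside the GENCODE gene, whose sequence is not shown. Before that start CCAAT lay at 68 and TTGCNNAA at 213, close to their distances in Ces1c, and 93.3% of 223 aligned bases were identical to Ces1c.

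Neither Ces3 gene passed the test for diet at either age. Ces3a, the most abundant carboxylesterase by FPKM, was 1746, 2101 and 2247 CPM (lowest, median, highest) in young ND and 1528, 1943 and 2526 CPM in young HFD, a log2 fold change of -0.09 (95% interval -0.45 to 0.26). In old mice it was 659, 1459 and 1541 CPM on ND and 1320.0, 1567 and 2463 CPM on HFD, a log2 fold change of 0.41 (SE 0.18, adjusted p = 0.187, edgeR). The batches disagreed, with a mean difference of -0.10 in batch 1 and 0.81 in batch 2, and without replicate 4 the value was 0.29. Ces3b was at 431 ± 84.1, 324 ± 81.9, 281.5 ± 133 and 353 ± 151 CPM in the groups in that order. Its diet estimates were -0.41 (SE 0.31) in young and 0.32 (SE 0.31) in old mice. In old mice the mean difference was -0.57 in batch 1 and 1.07 in batch 2. The old-mouse estimate was 0.15 without old ND replicate 4 and 0.51 without old HFD replicate 2. The lowest Ces3b values were old ND replicate 4 (94.3 CPM) and old HFD replicate 2 (105 CPM).

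**Figure D5:**
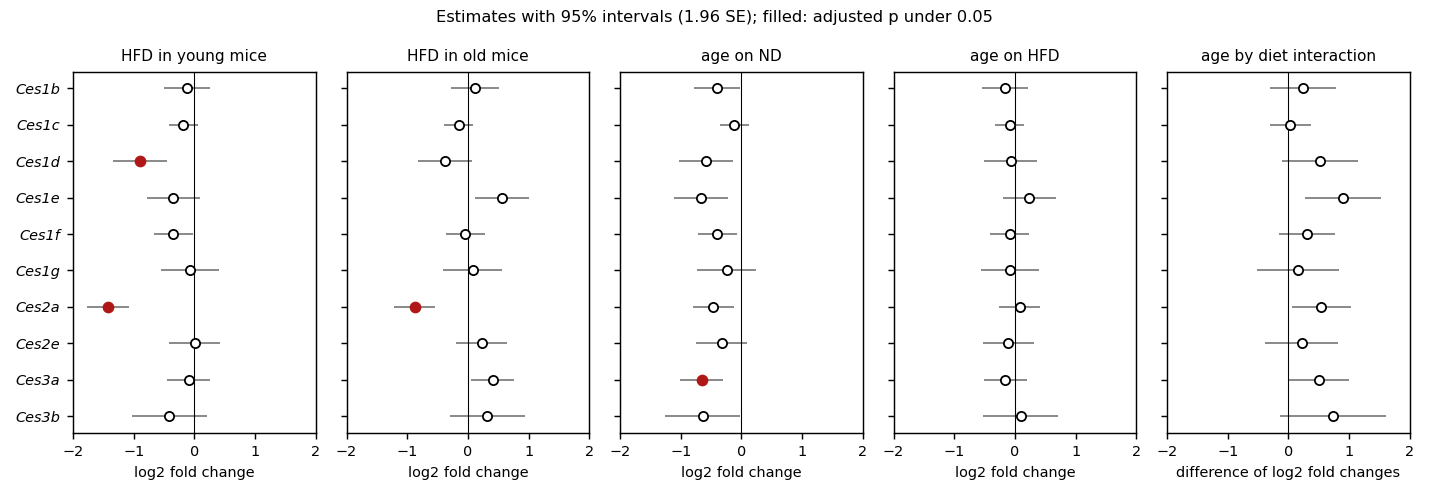
Estimates for the 10 carboxylesterases in 4 comparisons and in the age by diet interaction, with 95% intervals on the log2 scale. Filled points passed an adjusted p of 0.05: Ces2a and Ces1d on HFD in young mice, Ces2a on HFD in old mice and Ces3a with age on ND. All 10 interaction estimates lie above 0 but none passed.

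With age on ND, Ces3a fell, and all 10 estimates were below 0. Ces3a went from 1746 to 2247 CPM in young ND mice to 659 to 1541 CPM in old ND mice, with no overlap. The log2 fold change was -0.66 (SE 0.18, adjusted p = 0.025, edgeR), which is 63.5% of the young level, with -0.50 in batch 1 and -0.76 in batch 2. Without replicate 4 it was -0.51 (adjusted p = 0.0428, with 4.26% of all genes called), with the other 5 old ND mice at 1291 to 1541 CPM. The call was lost without young ND replicate 3 (adjusted p = 0.0525) or without old ND replicate 3 (adjusted p = 0.052, edgeR). It held in 7 of the 11 alternatives that did not leave out single mice, and was lost with limma on log2(FPKM + 1) with the filter (0.0632) and with none (0.119), in batch 1 alone (0.27) and in batch 2 alone (0.24). This was 1 of 10 carboxylesterases, where 8.5% of all tested genes passed in either direction and 1.24% were lower. Groups did not overlap for Ces3a and Ces1b (3.81% of all genes), and for Ces1b the margin was 81.7 against 81.6 CPM. Of the genes that did not pass, the largest estimates were -0.66 (adjusted p = 0.0727, edgeR) for Ces1e, as large as that of Ces3a, -0.64 (0.236) for Ces3b, -0.59 (0.117) for Ces1d and -0.46 (0.105) for Ces2a. Without replicate 4 these 4 were -0.48, -0.45, -0.39 and -0.30. Without old ND replicate 5, Ces1e (-0.76, adjusted p = 0.0373) and Ces1d (-0.71, adjusted p = 0.0487) also passed. The median over the 10 genes was -0.43 (-0.29 without replicate 4, with all 10 below 0), against 0.01 over all tested genes. On HFD the same comparison of ages called 0 of 10 carboxylesterases by edgeR (2.24% of all genes) and 0 by DESeq2, with estimates from -0.17 for Ces1b to 0.24 for Ces1e. There 0 of 10 had an unadjusted p under 0.05 by edgeR, against 2848 of all 13583 tested genes. Groups did not overlap for 0 of 10 genes there (0.795% of all genes).

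Markers of other liver cells moved with age on ND. By edgeR all 10 Kupffer cell and macrophage markers were higher in the old mice, where 8.5% of all tested genes passed in either direction. Their summed level was 1.74 to 86.9 CPM in young ND and 54.3 to 1421 CPM in old ND. Old ND replicates 3 and 4 were at 936 and 1421 CPM, and the rest of that group at 54.3 to 113 CPM. In batch 1 young ND mice were at 1.74 to 4.77 CPM and old ND mice at 54.3 and 105.5 CPM. In batch 2 the groups overlapped, with old ND replicate 6 (66.2 CPM) below young ND replicates 4 and 6 (86.9 and 80.7 CPM). Whether the marker calls hold without old ND replicate 4 was not examined. The endothelial list had 3 of 6 markers higher, the stellate list 5 of 6 tested, the lymphocyte list 4 of 6 tested, the neutrophil list 2 of 2 tested and the cholangiocyte list 0 of 2 tested, and 0 were lower in any of them. The neutrophil gene Ly6g had 0 CPM in all 24 mice. None of the 8 hepatocyte markers passed the test in this comparison or on HFD at either age. On HFD in young mice 1 Kupffer, 1 endothelial and 1 stellate marker were higher, and on HFD in old mice 0 of any of these lists. The 3 enterocyte genes, taken because gut also uses carboxylesterases, had 1 tested, which was higher on HFD in old mice, and the intestinal phosphatase gene Alpi was at 0 in every mouse of 3 groups. The part of these cells in the carboxylesterase values was not tested.

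Between the groups that differ in both age and diet, old HFD mice had less Ces2a, Ces1d and Ces1f than young ND mice, 3 of 10 where 30.2% of all tested genes passed in either direction and 12.9% were lower. This comparison uses the same young ND and old HFD mice as those above. The log2 fold changes were -1.34 (SE 0.18, adjusted p = 4.04e-05, edgeR) for Ces2a, -0.96 (SE 0.23, adjusted p = 0.00375) for Ces1d and -0.44 (SE 0.16, adjusted p = 0.048) for Ces1f. Groups did not overlap for these 3 genes (7.27% of all genes). In batch 2 alone 0 of the 3 passed (adjusted p from 0.0572 to 0.257, edgeR). The Ces1f call was lost in 20 of the 24 models that each left out 1 mouse, with an adjusted p of up to 0.0957, and held only without old ND replicate 4, 5 or 6 or old HFD replicate 3 (lowest adjusted p = 0.0038). All 10 estimates were below 0, with a median of -0.28 against 0.04 over all tested genes. In this comparison 9 of 10 Kupffer and 6 of 6 endothelial markers were higher, and of the 8 hepatocyte markers 1 was higher and 2 were lower.

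With the settings reported, no carboxylesterase passed the test of whether the effect of diet depended on age. The age by diet interaction was above 0 for all 10 genes, from 0.03 for Ces1c to 0.90 for Ces1e, with a median of 0.40 against -0.03 over all tested genes. By edgeR 0 of 10 passed, 0% of all genes passed, and 2 of 10 (Ces1e and Ces2a) had an unadjusted p under 0.05, as did 1247 of all 13583 tested genes. DESeq2 called 0 of the 10 and 7 genes in all, and with no filter on low counts edgeR called Ces1e (adjusted p = 0.0156) and 587 genes in all. Without old ND replicate 4 the Ces1c and Ces1g estimates were -0.06 and -0.05, and the other 8 stayed above 0, with a median of 0.24 over the 10 genes. In batch 1 alone the Ces3b estimate was -0.003, and in batch 2 alone those of Ces1b and Ces1c were -0.04 and -0.14, while the others stayed above 0. The 10 estimates come from the same mice, so their signs are not independent of each other. The interaction shares the old ND mice with the comparisons of diet in old mice and of age on ND.

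Of the 10 other carboxylesterase genes, 4 were tested (Ces2c, Ces2g, Ces2h and Ces4a). Ces2c fell from 42.0 ± 12.4 CPM in young ND to 17.3 ± 7.97 in old HFD mice (log2 fold change -1.31, SE 0.31, adjusted p = 0.00404, edgeR), a call that held in all 24 models with 1 mouse left out, with means of 30.9 CPM in young HFD and 23 CPM in old ND. In that comparison 30.2% of all tested genes passed and 12.9% were lower. The groups overlapped, with the lowest young ND mouse at 26.8 CPM and the highest old HFD mouse at 28.9 CPM. Of its 50-base words, 34.3% occur in another carboxylesterase, mostly the pseudogene Ces2d-ps, so its level is uncertain. Ces4a was lower with age on ND, at 1.52 to 6.78 CPM in young and 0.217 to 1.06 CPM in old mice (log2 fold change -2.41, SE 0.73, adjusted p = 0.0414, edgeR), where 8.5% of all tested genes passed and 1.24% were lower. That call was lost without old ND replicate 4 (-2.44, adjusted p = 0.082) and in 9 others of the 24 models that each left out 1 mouse, namely young ND replicates 1, 2, 4 and 6, young HFD replicate 6 and old ND replicates 2, 3, 5 and 6, with an adjusted p of up to 0.111. These models of Ces2c and Ces4a were added after the data were seen. Ces2g was 41.2 to 48.2 CPM on average in every group and did not pass in any comparison. Ces2f and Ces5a had 0 counts in all 24 mice, and Ces1h had 1 count in 1 young ND mouse.

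Other hydrolases of liver esters and lipids, a list of 22 genes that were all tested, had members called in both directions. On HFD in young mice Abhd2 (log2 fold change 1.12, SE 0.27, adjusted p = 0.0258, edgeR) and Nceh1, a hydrolase of neutral cholesterol esters (0.73, adjusted p = 0.0371), rose and the lactonase gene Pon3 fell by 0.39 (adjusted p = 0.0385), 3 of 22 against 3.5% of all tested genes. On HFD in old mice Mgll, the monoacylglycerol lipase, rose (0.57, adjusted p = 0.036), 1 of 22 against 3.01%. With age on ND 4 of 22 fell, where 8.5% of all tested genes passed and 1.24% were lower, among them Abhd6 (-0.74, adjusted p = 0.00362), Aadac, an esterase of the endoplasmic reticulum (-0.49, adjusted p = 0.0237), and Ephx2, the soluble epoxide hydrolase (-0.66, adjusted p = 0.0329). Their lowest old ND values were 15.2, 205 and 210 CPM, against old ND means of 22.8, 371 and 481 CPM. Whether these calls hold without old ND replicate 4 was not examined. In all, 586 genes were called with age on ND without that mouse, against 1155 with it. In old HFD against young ND 3 of 22 fell, namely Ephx1 (-1.04), Lipa (-0.42) and Pon2 (-0.32), where 30.2% of all tested genes passed and 12.9% were lower. With age on HFD and in the interaction 0 of 22 passed. The median of the list lay between -0.21 and 0.13 in all 6 comparisons.

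Genes of triacylglycerol storage and VLDL assembly, 18 genes all tested, had 2 members called on HFD in young mice and 4 in old mice, each of them higher, where 1.91% and 1.37% of all tested genes were higher. In young mice these were the lipid droplet coat gene Plin4 (log2 fold change 1.46, SE 0.31, adjusted p = 0.0106, edgeR) and the acyltransferase gene Mogat1 (1.78, SE 0.46, adjusted p = 0.0353). In old mice they included Mogat1 (2.42, adjusted p = 0.0129), Fitm2, which acts in droplet formation (0.67, adjusted p = 0.0251), and Plin4 (1.21, adjusted p = 0.0317). With age on ND the droplet fusion gene Cidea rose from 1.54 ± 1.09 to 10.1 ± 6.07 CPM (2.71, adjusted p = 0.00293) and Fitm2 fell (-0.50, adjusted p = 0.0493), 2 of 18 against 8.5% of all tested genes. With age on HFD Cidea alone passed (2.38, adjusted p = 0.00874), against 2.24% of all tested genes, and in old HFD against young ND 5 of 18 rose and 3 fell, where 30.2% of all tested genes passed, led by Cidea (3.75), Plin4 (1.41) and Cidec (1.42).

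Of 12 tested genes for retrieval and folding in the endoplasmic reticulum, 0 passed in any comparison except old HFD against young ND (30.2% of all tested genes), where Hsp90b1 rose (0.55) and the glycoprotein folding genes Uggt1 (-0.61) and Ganab (-0.37) fell. Of 12 regulators known for carboxylesterase genes, 0 passed outside the same comparison, where Hnf4a (-0.73), Stat5b (-0.58) and the PXR gene Nr1i2 (-0.45) were among 4 that fell, against 12.9% of all tested genes that were lower there. Hnf4a is also on the list of hepatocyte markers above. Of the target genes of the xenobiotic receptors CAR and PXR and of NRF2, 17 were tested. On HFD in young mice 4 of them fell and 1 rose, where 3.5% of all tested genes passed in either direction. Cyp3a11, a main drug-oxidizing cytochrome P450 of mouse liver, went from 3959 to 5450.0 CPM in young ND to 477 to 941 CPM in young HFD mice (log2 fold change -2.62, SE 0.23, adjusted p = 2.66e-07, edgeR), and Cyp2c55 fell by 2.61 (adjusted p = 6.09e-04). Cyp2b9, another P450 gene, rose from 0.0473 to 0.802 CPM in young ND to 10.2 to 156 CPM in young HFD mice. In old mice 6 of 17 fell and 1 rose, where 3.01% of all tested genes passed, with Cyp3a11 at -2.37 (adjusted p = 4.1e-06), Cyp2c55 at -2.90 and Cyp2b10, a classical CAR target, at -2.88. With age on ND 2 rose, Cyp2b9 and the heme oxygenase gene Hmox1 (1.52, adjusted p = 0.0205), and 0 fell, where 8.5% of all tested genes passed. With age on HFD and in the interaction 0 of 17 passed. In old HFD against young ND 8 of 17 fell and 2 rose, where 30.2% of all tested genes passed and 12.9% were lower.

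After the group and batch means were removed, the carboxylesterases varied together from mouse to mouse mainly through old ND replicate 4. Over 24 mice the 45 pairs among the 10 genes had a median Pearson r of 0.73 in log2 CPM, and over the 23 mice without replicate 4 a median of 0.21, from -0.49 to 0.74. The points share their libraries, so these values are descriptions. Among 7334 genes with a mean of at least 10 CPM, the genes most like Ces3a were Slc22a30 (r = 0.889 over 24 mice, 0.800 over 23), Cyp2d9 (0.875, 0.776) and Hsd3b3 (0.863, 0.639). Those most like Ces1c were Retsat (0.849, 0.645), Pbld2 (0.848, 0.603) and Hsd11b1 (0.840, 0.560). Those most like Ces2a were Hsd3b3 (0.917, 0.698), Cyp4f14 (0.912, 0.772) and 2310061I04Rik (0.884, 0.560), and Cyp4f14 was also the gene most like Ces2a over 23 mice. The other lists depended on replicate 4: over 23 mice the 3 genes ranked 9, 15 and 74 for Ces3a and 6, 20 and 42 for Ces1c, and the other two for Ces2a ranked 14 and 96.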

How the data were processed

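Hepatocyte polyA RNA of 24 mice was compared over 4 groups of 6. Counts of each gene, as whole numbers, are what the authors deposited first. They used FastQC 0.11.8, STAR 2.7.3a in 2-pass mode on mm10, SAMtools and HTSeq 0.11.2. The authors also deposited FPKM from CuffLinks, which the file's name gives as adjusted by ComBat. Groups, batches and replicate numbers came from sample titles.

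The test was edgeR 4.0.16 (R 4.3.3) on deposited counts of all 24 mice: TMM, the filterByExpr filter, group and batch as terms, quasi-likelihood F tests and Benjamini-Hochberg adjustment over 13583 genes within each comparison, with a threshold of 0.05. CPM used TMM-scaled totals, and log2 CPM a prior count of 2. Intervals are 1.96 SE wide on each side. Alternatives used DESeq2 1.42.0, limma 3.58.1 on log2(FPKM + 1) or log2(FPKM + 0.1), another scaling, no filter, other terms, single batches and fewer mice. Upstream bases are RefSeq's and aligned with Biopython 1.88.

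The 10 genes and all gene and marker lists were chosen with earlier results of these data known. Named are all 10 genes, up to 3 called genes per list and comparison with the smallest adjusted p, and the 3 genes most like each of the 3 carboxylesterases highest in FPKM. Ces2g, Ces2f, Ces5a, Ces1h, Alpi and Ly6g were named after their values were seen.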

Additional observations from a re-analysis of the deposited data

Results flagged for a closer look

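In each group of 6 mice the highest and lowest log2 CPM of the 10 carboxylesterases were set against the rest by Dixon's ratio at its 95% critical value. Of 40 groups tested, 13 held such a mouse, where chance gives about 1 in 20. Old ND replicate 4 accounted for 9 of the 13, each time as the lowest mouse: its log2 CPM was 5.07 for Ces1b, 10.67 for Ces1c, 7.68 for Ces1d, 6.03 for Ces1e, 7.70 for Ces1f, 5.61 for Ces1g, 7.03 for Ces2a, 6.13 for Ces2e and 9.37 for Ces3a. The gap below the mean of the other 5 mice was smallest for Ces1c (-0.73) and largest for Ces1g (-2.47).

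Young ND replicate 5 was set apart as the lowest of its group for Ces2a (8.44) and Ces3a (10.77). Young HFD replicate 5 was the highest of its group for Ces1e (8.27). Old HFD replicate 2, the mouse with the fewest genes detected, was the lowest of its group for Ces3b (6.71).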

How the results depend on the processing

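The 7 estimates that passed the test kept their direction in every alternative run. Of the 53 that did not pass, 22 changed sign in at least 1 alternative, in 46 of 1898 values. Among all 2150 values, 51 lost and 11 gained a call. The counts below are given in the order young HFD, old HFD, age on ND, age on HFD, old HFD against young ND and interaction, against 475, 409, 1155, 304, 4100 and 0 genes and 2, 1, 1, 0, 3 and 0 carboxylesterases called with the settings reported. Values within 1.5 times are left out, and the causes were not tested.

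DESeq2 called 1219 genes on HFD in young mice, 1091 in old mice, 1768 with age on ND, 850 with age on HFD and 7 in the interaction. With no filter on low counts the same 5 counts were 1473, 1108, 2053, 1235 and 587, with 4 carboxylesterases called with age on ND and 1 in the interaction. With no batch term 174, 266, 628 and 116 genes were called in the first 4 comparisons. Models of only the groups compared called 2302 on HFD in young mice, 15 in old mice (0 carboxylesterases), 48 with age on HFD and 2094 in old HFD against young ND. Batch 1 alone gave 130, 15, 93, 9 and 919 genes in the first 5 comparisons, with 0 carboxylesterases with age on ND. Batch 2 alone gave 9, 16, 2, 0 and 617 genes, with 0 carboxylesterases called on HFD at either age, with age on ND and in old HFD against young ND. There Ces2a was at -1.32 in young (adjusted p = 0.244, edgeR) and -0.64 in old mice (adjusted p = 0.449). On log2(FPKM + 1) limma called 241 genes on HFD in young mice, 182 with age on ND (0 carboxylesterases), 139 with age on HFD and 2571 in old HFD against young ND. On log2(FPKM + 0.1) the same 4 were 284, 385, 168 and 2684. With no filter on log2(FPKM + 1) the first 5 comparisons gave 152 (1 carboxylesterase), 172, 39 (0), 33 and 2237.

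Without old ND replicate 4 and old HFD replicate 2, chosen after seeing the data, 1453 genes were called on HFD in young mice and 200 with age on HFD, and 2 carboxylesterases on HFD in old mice. Leaving out 1 mouse at a time gave 146 to 998 genes and 1 to 2 carboxylesterases on HFD in young mice, 84 to 823 and 1 to 2 in old mice, 586 to 1592 and 0 to 3 with age on ND, 40 to 813 and 0 to 0 with age on HFD, 3314 to 4722 and 2 to 3 in old HFD against young ND, and 0 to 1 and 0 to 0 in the interaction.

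Groups share replicate numbers that belong to different mice. Same-numbered mice correlated at a mean of 0.18 over 36 pairs after group means were removed and at -0.05 after batch means were removed too, so the numbers were not taken as pairs. With the replicate block in place of batch, 283 genes and 1 carboxylesterase were called on HFD in young mice (Ces1d at an adjusted p of 0.0502, edgeR), 131 genes with age on HFD and 1 gene in the interaction. The block also ended the Ces1f call in old HFD against young ND (adjusted p = 0.052) and no other carboxylesterase call. That Ces1f call was also lost with DESeq2 (adjusted p = 0.0548), with size factors in place of TMM in edgeR (0.0685) and with no batch term (0.0726), and passed in 2 of the 11 alternatives that did not leave out single mice.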
